A study of Homo sapiens with 6 samples.

Results

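The genes described here encode subunits of the machinery that cuts nuclear pre-mRNA at its 3′ end and starts the poly(A) tail. They are CPSF1, CPSF2, CPSF3 and CPSF4 of the cleavage and polyadenylation specificity factor (CPSF), CSTF1, CSTF2 and CSTF3 of the cleavage stimulation factor (CstF), and NUDT21, CPSF6 and CPSF7 of cleavage factor Im (CFIm). These 10 genes were chosen by name, and all 10 were found by their GENCODE release 29 symbols among the 58780 human genes in the tables and passed the filter on low counts. RNA was sequenced from HCT116, a human colorectal carcinoma line, after 16 h of auxin in 3 libraries and after DMSO, the solvent control, in 3 libraries. Auxin is a plant hormone that triggers breakdown of a protein fused to a degron tag. The labels name neither the protein that auxin acts on nor the clone, and they give no genotype beyond the treatment. The labels mark the replicates with a B number that differs between them and a T number that is the same in all. They do not say whether the replicates were separate cultures, so p-values measure the spread between these libraries, which may be technical.

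CPSF binds the AAUAAA signal upstream of the cleavage site, and its subunit CPSF3 is the nuclease that cuts. CstF binds GU-rich sequence downstream of the site, and CFIm binds UGUA elements upstream of it, so the amounts of these subunits are known to influence which of several poly(A) sites a gene uses. A site inside an intron gives a shortened transcript, and CSTF3 itself is known to have such a site in the third intron.

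Libraries held from 234037969 to 625895062 expected counts (estimated reads, which need not be whole), and replicate 1 was the deepest of each group. The first principal component of all genes separated the treatments and held 71.9% of the variance. The second, with 14.8%, set replicate 1 of both groups apart from the other libraries. All 6 colorectal epithelial marker genes were detected at a mean TPM of at least 1 (TPM is the level of a gene scaled by transcript length), with summed levels of 1726 to 2377 after DMSO and 2209 to 2650 after auxin. The leukocyte and endothelial lists had no detected member, PTPRC and CD3E were at 0, and 1 of 5 fibroblast markers was detected.

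Of the 10 genes, 3 were higher after auxin (CSTF3, CPSF2 and CSTF1), 3 were lower (CPSF1, CPSF4 and NUDT21) and 4 did not pass the test (CPSF3, CSTF2, CPSF6 and CPSF7). A gene is called here when edgeR's quasi-likelihood test gives it a Benjamini-Hochberg adjusted p under 0.05, with 19725 genes tested. By that rule 52.3% of all genes tested were called, 25.4% as higher and 26.9% as lower, so being called was common in these data. The median log2 fold change (auxin over DMSO throughout) of the 10 genes was 0.12, against 0.02 for all genes tested. CPSF1 and CPSF4 are both CPSF subunits, and CPSF2 of the same complex moved the other way. In CstF 2 of 3 subunits were higher and none was lower. In CFIm 1 of 3 was lower and none was higher. The labels do not say whether same-numbered libraries form pairs, but the replicate number was also fitted as a block. With this block 5 of the 10 genes were higher and 4 lower. Of all genes tested 69.9% were called with it (35.5% higher and 34.4% lower). CSTF2 and CPSF7 joined the higher and CPSF6 the lower genes.

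**Figure D1:**
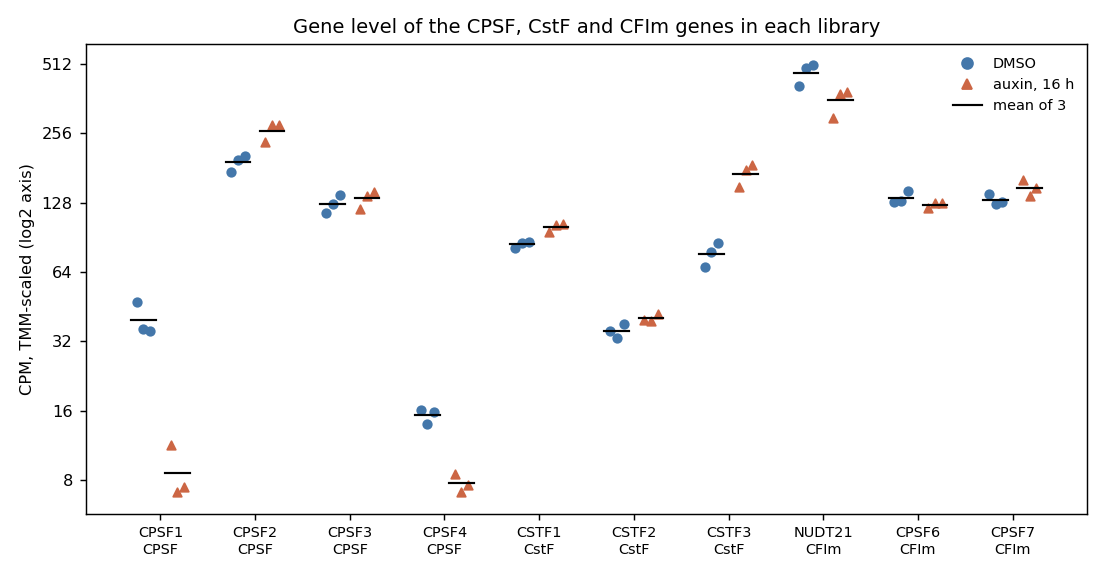
CPM (expected counts relative to TMM-adjusted library size, log2 axis) of the CPSF, CstF and CFIm genes in each library, with circles for DMSO, triangles for auxin and a line for the mean of 3. CPSF1, CPSF4 and CSTF3 show the widest gaps between groups, and the groups overlap for CPSF3 and CPSF7.

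CPSF1, the largest CPSF subunit and a scaffold for its poly(A) signal recognition part, fell most. The gene (ENSG00000071894.16, chr8:144393229-144409349, minus strand, GRCh38) had 47.3, 36.2 and 35.4 CPM in the DMSO libraries and 11.3, 7.05 and 7.42 CPM in the auxin libraries. Every auxin library lay below every DMSO library, and replicate 1 was the highest of each group. The log2 fold change was -2.20 (SE 0.21, edgeR adjusted p = 1.37e-04), which is 4.60-fold lower. Among all genes tested, 13.3% were called lower by at least 2-fold. In bulk RNA a lower level per cell cannot be told apart from fewer cells expressing the gene. With counts corrected for GC content in each library, the log2 fold change of CPSF1, whose transcripts are 62.8% GC, was -1.48.

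A processed pseudogene of CPSF1, CPSF1P1 (chr22:32269381-32273110), was counted as a gene of its own. It had 6.85, 5.91 and 5.68 CPM after DMSO and 9.10, 7.80 and 7.85 CPM after auxin, so it rose by 0.42 in log2 CPM (SE 0.11, edgeR adjusted p = 0.0162). CPSF1 and its copy thus moved in opposite directions, and after auxin they stood at similar counts. Because reads of near-identical copies can be split between them, the summed level is the more cautious one: 45.8 ± 7.3 CPM after DMSO and 16.8 ± 3.1 CPM after auxin (SD, n = 3), a 2.72-fold difference. The deposited posterior standard deviation of the CPSF1 count, a measure of how uncertain read assignment was, reached at most 0.0037% of the count. That of CPSF1P1 reached at most 0.31% of its count, so by this measure few reads were uncertain between genes.

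The transcripts of CPSF1 did not move alike. CPSF1-212, the 38-exon coding transcript, had a TPM of 8.03, 5.11 and 4.96 after DMSO and 1.03, 0.77 and 0.74 after auxin, a log2 change of -2.65 (SE 0.10, edgeR adjusted p = 1.55e-04 over 83072 transcripts). CPSF1-207, a 6-exon coding transcript from the 3′ end of the gene, had a log2 change of -2.37 (SE 0.35, edgeR adjusted p = 0.00677). Transcripts annotated as retained intron stayed closer to their DMSO level. Their summed TPM was 7.35, 3.31 and 3.04 after DMSO and 6.30, 1.62 and 1.56 after auxin, while that of the coding transcripts was 29.3, 13.6 and 14.2 after DMSO and 4.8, 2.2 and 2.56 after auxin. The coding sums did not overlap between groups and the retained-intron sums did, with replicate 1 the highest of each group. Within each same-numbered pair the retained-intron sum was lower after auxin.

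The retained-intron share of CPSF1 was 19.8%, 19.6% and 17.7% of its TPM after DMSO and 51.7%, 42.4% and 37.9% after auxin. By expected counts, which weight long transcripts more, the share was 5.41 ± 0.63% after DMSO and 16.5 ± 6.8% after auxin (SD, n = 3). Groups did not overlap on either scale. With 3 libraries a group there are 20 assignments of the labels, and an exact permutation test cannot go below a two-sided p of 0.1. Among the 10 genes, 8 have retained-intron transcripts, and this share was higher without overlap in CPSF1 and CPSF4 and lower without overlap in none. Of 7776 genes with such transcripts, 20.9% were higher and 6.84% lower without overlap.

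**Figure D2:**
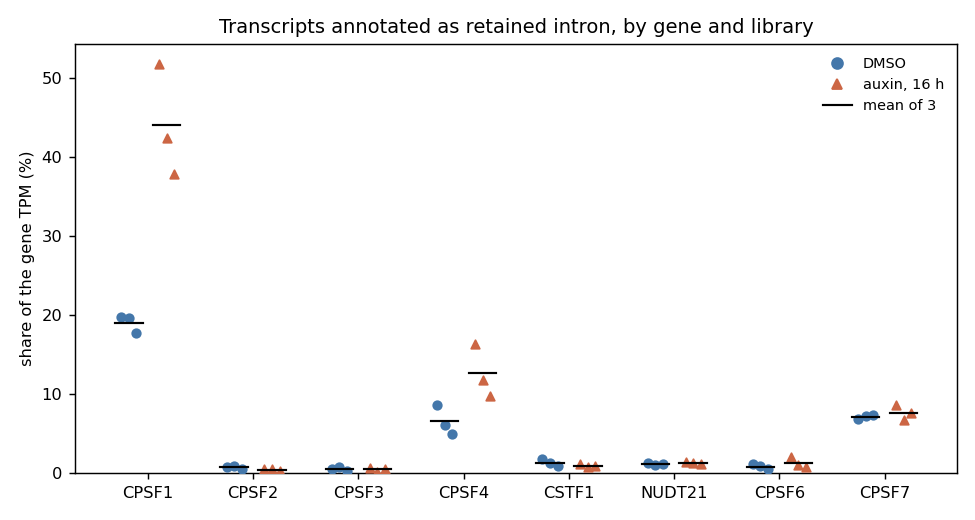
Share of each gene's TPM held by transcripts annotated as retained intron, for the 8 genes that have them, with circles for DMSO, triangles for auxin and a line for the mean of 3. CPSF1 goes from 17.7% to 19.8% after DMSO to 37.9% to 51.7% after auxin, CPSF4 is also higher, and the groups overlap in the other genes.

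Single retained-intron transcripts of CPSF1 were tested by limma on the log2 odds of a transcript against the rest of its gene. CPSF1-201, CPSF1-202 and CPSF1-209 were called higher in share, with log2 odds changes of 2.54 (SE 0.54), 2.58 (SE 0.37) and 3.72 (SE 0.77) and limma adjusted p = 0.0455, 0.0146 and 0.0427 over 76312 transcripts. None of these 3 passed the edgeR test of its own level, with log2 changes of 0.58, 0.39 and 1.91. Without auxin replicate 1 these were -0.31, -0.13 and 0.84. CPSF1-202 lost its share call without auxin replicate 2 (limma adjusted p = 0.0531). CPSF1-201 and CPSF1-209 lost theirs without any one library other than auxin replicate 3, with limma adjusted p up to 0.152 and 0.141. With the replicate block the share call of CPSF1-201 was lost as well (limma adjusted p = 0.0534). The coding CPSF1-212 and CPSF1-207 were not called in share. Without the block their log2 odds changes were -1.01 and -0.21 (limma adjusted p = 0.215 and 0.669).

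CPSF4, the zinc finger subunit that contacts the poly(A) signal, fell next most. The gene (ENSG00000160917.14, chr7:99438922-99457371, plus strand) had 16.1, 14.0 and 15.7 CPM after DMSO and 8.52, 7.11 and 7.57 CPM after auxin. Groups did not overlap, and the log2 fold change was -0.98 (SE 0.10, edgeR adjusted p = 1.91e-04), or 1.97-fold lower. It was -0.67 with the GC correction, and limma on log2(TPM + 1) gave an adjusted p of 0.0569. CPSF4 lies inside PTCD1 on the other strand, where 3 coding genes overlap it: PTCD1 had a mean of 10.5 CPM after DMSO and 13.1 after auxin, ATP5MF 44.5 and 33.6, and the readthrough ATP5MF-PTCD1 5.10 and 5.42. Only the last of the 3 shares exonic bases with CPSF4, 157 of them. The kit marks strand, but whether counting used it is not given in the sources used here.

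Of 10 transcripts of CPSF4 tested in level, 1 was called higher and 3 lower, and 6 were not called. The higher one was CPSF4-208. It joins exon 4 directly to exon 6 and skips exon 5 of the coding transcript CPSF4-204 (exon at chr7:99450702-99450795, 94 bases, a length that leaves a remainder of 1 when divided by 3). The exon with 12 bases of each neighbour, and the junction without it, are shown because they mark the difference between these transcripts. In the first the skipped exon is in capitals, and in the second the start of exon 6 is. Both are read 5′ to 3′ from the GENCODE release 29 transcripts on GRCh38.
CPSF4-204 exon 5: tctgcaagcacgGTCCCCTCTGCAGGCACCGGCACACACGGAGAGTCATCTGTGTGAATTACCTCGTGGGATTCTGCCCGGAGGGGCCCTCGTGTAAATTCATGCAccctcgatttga
CPSF4-208 junction: tctgcaagcacgCCCTCGATTTGA

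CPSF4-208 had 17.6, 6.46 and 5.43 expected counts after DMSO and 212.2, 70.2 and 90.7 after auxin. It was near the lower limit of counting in the DMSO libraries, where the posterior standard deviation reached 69.5% of the count, against 10.4% after auxin. Its log2 change in level was 3.86 (SE 0.34, edgeR adjusted p = 0.00117), and its log2 odds within the gene rose by 4.86 (SE 0.26, limma adjusted p = 0.00199). Both calls held without any one library. Among the transcripts that hold or skip exon 5, the skipping one took 0.594%, 0.498% and 0.426% of the TPM after DMSO and 11.3%, 12.1% and 15.2% after auxin. By expected counts the share was 0.162 ± 0.030% and 4.72 ± 0.81% (SD, n = 3), on a scale that weights long models more. These are shares of transcript models, since reads across single junctions were not analysed here, and this grouping of transcripts was made after their values were seen.

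The main coding transcripts of CPSF4 fell in step with the gene. CPSF4-201 had a log2 change of -1.04 (SE 0.12, edgeR adjusted p = 0.00277) and CPSF4-204 one of -1.17 (SE 0.22, edgeR adjusted p = 0.0144). Their mean shares went from 56.7% to 47.1% and from 28.6% to 21.9%, and neither passed the share test. CPSF4-204 lost its level call without DMSO replicate 3 (edgeR adjusted p = 0.0589). Retained-intron transcripts of CPSF4 held 8.62%, 6.07% and 4.87% of its TPM after DMSO and 16.3%, 11.7% and 9.73% after auxin. Their summed TPM was 0.757 ± 0.445 after DMSO and 0.747 ± 0.384 after auxin (SD, n = 3), with overlapping groups.

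CPSF2, a catalytically inactive relative of the nuclease CPSF3, rose. The gene (ENSG00000165934.12, chr14:92121937-92172145, plus strand) had 173.5, 196.8 and 204.9 CPM after DMSO and 233.7, 279.1 and 276.8 CPM after auxin. Groups did not overlap, and the log2 fold change was 0.46 (SE 0.10, edgeR adjusted p = 0.00605), or 1.37-fold. On the TPM scale the groups did overlap, and limma on log2(TPM + 1) gave 0.22 with an adjusted p of 0.263. CPSF3, the nuclease itself (ENSG00000119203.13, chr2:9423568-9473101, plus strand), had 115.4, 126.0 and 138.2 CPM after DMSO and 120.2, 137.2 and 142.7 CPM after auxin. Its groups overlapped, and its log2 fold change was 0.08 (SE 0.09, edgeR adjusted p = 0.532). The value turned to -0.07 with the GC correction and to -0.01 with library size only. These 2 related subunits differed in call, and the difference between them was not tested.

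CSTF3, the CstF subunit that bridges the other two and dimerizes, rose most. The gene (ENSG00000176102.12, chr11:33077188-33162371, minus strand) had 66.9, 78.0 and 85.3 CPM after DMSO and 149.5, 176.6 and 185.7 CPM after auxin. The lowest auxin library was well above the highest DMSO library. The log2 fold change was 1.15 (SE 0.12, edgeR adjusted p = 1.74e-04), or 2.22-fold, and the 3 same-numbered pairs gave 1.16, 1.18 and 1.12. Among all genes tested, 6.55% were called higher by at least 2-fold. With the GC correction it was 1.04. TCP11L1 and LINC00294 overlap CSTF3 on the other strand, share 392 and 263 exonic bases with it, and were lower after auxin in mean, from 18.7 to 14.3 CPM and from 11.2 to 8.66 CPM.

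CSTF3 makes full-length transcripts of 21 or 22 exons and short ones that stop in intron 3 (chr11:33108419-33141666). The short models that end there are CSTF3-202, CSTF3-203, CSTF3-204 and CSTF3-207, with last bases at 33141465, 33140966, 33141608 and 33134413. The short and long transcripts differ in how they end, so the 3′ end of the full-length CSTF3-201 is shown with its poly(A) signal in capitals (chr11:33084586-33084615, minus strand). It is read 5′ to 3′ from the GENCODE release 29 transcripts.
CSTF3-201 poly(A) signal: agtcctttaaaaAATAAAaggattcagaaa

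The AATAAA of CSTF3-201 starts 20 bases before the transcript's end. Neither AATAAA nor ATTAAA, searched on the transcript strand, is in the last 50 bases of CSTF3-202 or CSTF3-203 as annotated, which says only that these letters are not in that window.

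The full-length transcripts carried the rise of CSTF3. CSTF3-201 had a TPM of 30.4, 24.2 and 27.7 after DMSO and 55.0, 50.4 and 56.5 after auxin, a log2 change of 1.15 (SE 0.15, edgeR adjusted p = 0.00424). CSTF3-206, the model with 22 exons, had 0.80, 0.52 and 0.47 after DMSO and 3.19, 2.87 and 3.15 after auxin, a log2 change of 2.57 (SE 0.15, edgeR adjusted p = 3.61e-04). Both calls held without any one library. The short transcripts did not follow: CSTF3-202 changed by -0.42 (SE 0.32, edgeR adjusted p = 0.437) and CSTF3-203 by -0.22 (SE 0.20, edgeR adjusted p = 0.522) on the log2 scale. The summed TPM of the short models was 3.57 ± 0.18 after DMSO and 2.55 ± 0.24 after auxin (SD, n = 3).

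Within CSTF3, the short models together held 10.8%, 12.2% and 11.03% of the TPM after DMSO and 3.92%, 5.03% and 3.93% after auxin. The DMSO shares were more than 2-fold the auxin shares in every pairing of libraries. By expected counts they went from 3.36 ± 0.27% to 1.22 ± 0.15% (SD, n = 3). In the limma test of log2 odds, CSTF3-202 fell by 1.64 (SE 0.24, adjusted p = 0.0146) and CSTF3-203 fell by 1.40 (SE 0.18, adjusted p = 0.0104), while CSTF3-206 rose by 1.45 (SE 0.21, adjusted p = 0.0155). The share of CSTF3-206 was 2.28%, 1.84% and 1.49% after DMSO and 5.25%, 5.12% and 5.07% after auxin. Of all transcripts tested for share 9.52% were called, 5.99% as higher and 3.53% as lower.

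The share calls of CSTF3 were close to the threshold when libraries were left out. CSTF3-202 had a limma adjusted p of 0.0715 when DMSO replicate 2 was left out, 0.0631 when DMSO replicate 3 was and 0.0573 when auxin replicate 3 was. CSTF3-203 had 0.0556 without DMSO replicate 2. CSTF3-206 had 0.0731 and 0.0523 when DMSO replicates 2 and 3 were left out in turn, and 0.0607 and 0.0578 when auxin replicates 2 and 3 were. The log2 odds changes themselves stayed between -1.82 and -1.46 for CSTF3-202, between -1.45 and -1.31 for CSTF3-203 and between 1.29 and 1.61 for CSTF3-206 in these leave-one-out fits.

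**Figure D3:**
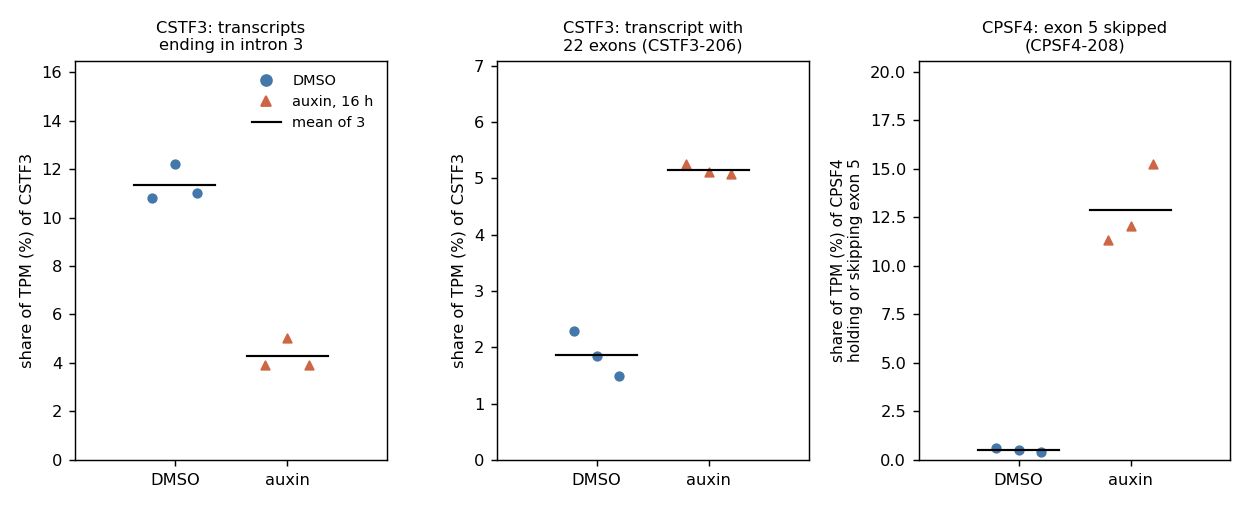
Share of TPM of the CSTF3 transcripts that end in intron 3 (left), of the 22-exon CSTF3-206 (middle) and of the CPSF4 transcript that skips exon 5 (right), with circles for DMSO, triangles for auxin and a line for the mean of 3. The first is lower after auxin (11.3% to 4.29% in mean) and the other two are higher (1.87% to 5.15% and 0.506% to 12.9%), with no overlap between groups.

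CSTF1, the WD-repeat subunit of CstF, rose slightly. The gene (ENSG00000101138.11, chr20:56392371-56406369, plus strand) had 81.5, 85.2 and 86.7 CPM after DMSO and 95.4, 102.5 and 102.9 CPM after auxin. Groups did not overlap, and the log2 fold change was 0.25 (SE 0.06, edgeR adjusted p = 0.00873). With the GC correction it was 0.07 and no longer called (edgeR adjusted p = 0.280). CSTF2, the subunit that binds RNA (ENSG00000101811.13, chrX:100820359-100840932, plus strand), had 35.5, 33.1 and 37.9 CPM after DMSO and 39.4, 39.3 and 42.0 CPM after auxin. Its groups did not overlap, as in 60.3% of all genes tested, and its log2 fold change of 0.18 (SE 0.07) did not pass (edgeR adjusted p = 0.0609). With the replicate block it passed (edgeR adjusted p = 0.00163). None of the 9 transcripts of CSTF1 and CSTF2 tested was called in level or share without the block. With it CSTF1-201, CSTF1-202 and CSTF2-201, all coding, were called higher in level (edgeR adjusted p = 0.0214, 0.0138 and 0.0426).

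NUDT21, the CFIm subunit that binds UGUA, fell. The gene (ENSG00000167005.13, chr16:56429133-56452199, minus strand) had 409.8, 490.8 and 505.1 CPM after DMSO and 298.6, 379.8 and 388.0 CPM after auxin. Groups did not overlap, and replicate 1 was the lowest of each. The log2 fold change was -0.40 (SE 0.13, edgeR adjusted p = 0.0321), and the 3 same-numbered pairs gave -0.46, -0.37 and -0.38. The call was lost when DMSO replicate 2 (edgeR adjusted p = 0.0883), DMSO replicate 3 (0.0910), auxin replicate 1 (0.0533) or auxin replicate 2 (0.0534) was left out, and with upper-quartile factors (0.0573). It was stronger with the replicate block (7.59e-06) and with the GC correction (log2 fold change -0.55, edgeR adjusted p = 0.00344).

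CPSF6 and CPSF7, the alternative larger partners of NUDT21, did not pass. CPSF6 (ENSG00000111605.17, chr12:69239537-69274358, plus strand) had 128.6, 130.5 and 144.1 CPM after DMSO and 120.7, 127.4 and 128.0 CPM after auxin. Its log2 fold change was -0.10 (SE 0.07, edgeR adjusted p = 0.237). CPSF7 (ENSG00000149532.15, chr11:61402641-61430031, minus strand) had 139.8, 126.8 and 128.5 CPM after DMSO and 160.4, 136.9 and 148.5 CPM after auxin. Its log2 fold change was 0.17 (SE 0.08, edgeR adjusted p = 0.0968). The difference between the 2 genes was not tested, and the value for CPSF6 was 0.02 with upper-quartile factors. Both were called with the replicate block (edgeR adjusted p = 0.0294 for CPSF6 and 0.00134 for CPSF7) and with the GC correction (0.00764 and 0.0293), CPSF6 as lower and CPSF7 as higher.

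Minor transcripts of CPSF7 annotated for nonsense-mediated decay moved in both directions. CPSF7-214, CPSF7-216 and CPSF7-217, singled out after their values were seen, were called lower in level and in share, and each held under 1% of the gene's TPM in every library. CPSF7-216 had 40.8, 20.8 and 23.8 expected counts after DMSO and 10.4, 5.23 and 2.97 after auxin, a log2 odds change of -2.28 (SE 0.28, limma adjusted p = 0.00910). CPSF7-217 had 28.4, 13.6 and 12.6 expected counts after DMSO and was at 0 in the 3 auxin libraries, where a count of 0 allows up to 3. CPSF7-214 lost its calls without any one library other than auxin replicate 1, CPSF7-216 its level call without any one library and CPSF7-217 its level call without any one DMSO library, with adjusted p up to 0.146, 0.0818 and 0.0684 in level. With the replicate block CPSF7-217 was not called in level (edgeR adjusted p = 0.0921). Posterior standard deviations reached 72.0% of the count for CPSF7-217 after DMSO and 102% for CPSF7-214 after auxin. CPSF7-221 went from 0.64, 0.37 and 0.36 TPM to 1.21, 1.05 and 0.64, and was called higher in level only (log2 change 1.27, SE 0.31, edgeR adjusted p = 0.0356). Its call was lost without any one library other than auxin replicate 3, with edgeR adjusted p up to 0.124.

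Across all 98 transcripts of the 10 genes, 72 passed the filter on low counts. In level 5 were called higher and 10 lower. Of the 83072 transcripts tested 19.7% were called in level, 8.43% as higher and 11.2% as lower. The 5 that were higher in level were CSTF3-201, CSTF3-206, CPSF4-208, CPSF7-221 and CPSF2-201, the last with a log2 change of 0.48 (SE 0.12, edgeR adjusted p = 0.0361) and a call that was lost without any one library other than auxin replicate 1 (up to 0.134). Lower in level, besides those named above, were CPSF1-213 (log2 change -1.76, edgeR adjusted p = 0.0250), CPSF4-207 (-1.21, 0.0297) and CPSF6-202 (-0.32, 0.0364). CPSF6-202 lost this call without any one library (up to 0.121). CPSF4-207 lost it without any one other than auxin replicate 1 (up to 0.0866). CPSF1-213 lost it without DMSO replicate 3, auxin replicate 2 or auxin replicate 3 (up to 0.0768). In share the 5 higher ones were 3 CPSF1 retained-intron transcripts, CPSF4-208 and CSTF3-206, and the 5 lower ones were CSTF3-202, CSTF3-203, CPSF7-214, CPSF7-216 and CPSF7-217. The main transcripts of CPSF3, CSTF1, CSTF2, NUDT21 and CPSF6 were not called in share. CPSF3-201 held at least 97.6% of its gene's TPM in every library. CPSF6-207, a model of 234 bases, ranged from 0.582% to 40.7% of the TPM of CPSF6 and varied more between replicates than between groups, so the TPM of CPSF6 depends in part on this short model.

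With the replicate block 11 of the 72 transcripts were called higher in level and 12 lower, while 27.0% of all transcripts tested were called (12.8% higher and 14.1% lower). Besides those of CSTF1 and CSTF2, the coding CPSF2-204 (edgeR adjusted p = 0.0327) and CPSF6-201 (0.0202) and the retained-intron CPSF7-218 (0.0361) joined the higher ones. NUDT21-201, the coding CPSF4-206 and the retained-intron CPSF1-208 joined the lower ones (edgeR adjusted p = 0.00754, 0.0498 and 0.0423). In share 6 were higher and 5 lower with the block, while 7.35% of all transcripts were called (4.8% higher and 2.55% lower), and the retained-intron CPSF1-204 and CPSF1-211 joined the higher ones (limma adjusted p = 0.0281 and 0.0319).

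Levels between genes can be compared per length, by TPM. After DMSO, NUDT21 was highest with 170 ± 31, followed by CPSF6 (60.9 ± 6.3), CPSF3 (58.8 ± 8.8), CPSF2 (47.4 ± 5.7), CPSF7 (45.1 ± 14.9), CSTF1 (44.9 ± 8.3), CSTF3 (31.6 ± 3.4), CPSF1 (23.8 ± 11.6), CSTF2 (21.0 ± 5.1) and CPSF4 (11.1 ± 3.3; TPM, SD, n = 3). Neighbours in that order overlapped between libraries except NUDT21 with CPSF6, CSTF1 with CSTF3, and CSTF2 with CPSF4. After auxin, NUDT21 was still highest with 118 ± 9, and CSTF3 stood next with 59.7 ± 3.2, overlapping CPSF6, CPSF3, CPSF2 and CPSF7. CPSF1 (6.71 ± 4.74) and CPSF4 (5.70 ± 1.40) were lowest and overlapped each other. CSTF3 thus passed from the lower part of the order to its upper part, and CPSF1 from beside CSTF2 to below it.

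The other core cleavage and polyadenylation factors, a list of 16 genes chosen from knowledge of the pathway, gave 15 tested genes, of which 3 were higher, 5 lower and 7 not called, with a median log2 fold change of 0.07. These counts stand beside 25.4% higher and 26.9% lower among all genes tested. SYMPK, the scaffold symplekin, went from 94.0, 78.0 and 79.5 CPM to 35.4, 29.6 and 30.8 CPM (log2 fold change -1.39, SE 0.10, edgeR adjusted p = 3.93e-05). PPP1CA, a catalytic subunit of protein phosphatase 1, fell by 1.14, PABPN1, the nuclear poly(A) binding protein, by 0.93, RBBP6, a ubiquitin ligase needed for cleavage, by 0.87, and PPP1CC by 0.40 on the log2 scale. FIP1L1, the CPSF subunit that recruits poly(A) polymerase, rose by 0.54, and the poly(A) polymerases PAPOLG and PAPOLA by 0.35 and 0.27. PAPOLA was called at edgeR adjusted p = 0.0483 and was not called by DESeq2 (0.0737), nor without any one library other than auxin replicate 1, with edgeR adjusted p up to 0.154.

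The 7 genes of this list that did not pass were WDR33 (log2 fold change 0.19), which contacts the poly(A) signal together with CPSF4, PCF11 (0.19) and CLP1 (0.07) of cleavage factor II, CSTF2T (0.09), a paralog of CSTF2, SSU72 (0.06), PPP1CB (0.34, edgeR adjusted p = 0.0510) and PAPOLB (-0.85, edgeR adjusted p = 0.0743). PAPOLB was under 0.3 CPM in every library, and CPSF4L, a relative of CPSF4, was too low to test. With the replicate block 7 of the 15 were higher and 6 lower, against 35.5% and 34.4% of all genes: WDR33, PCF11, PPP1CB and CSTF2T joined the higher genes (edgeR adjusted p = 9.72e-04, 4.02e-04, 2.04e-05 and 0.0413) and PAPOLB the lower ones (0.0168). PPP1CB was called without DMSO replicate 2 (edgeR adjusted p = 0.0489) and without auxin replicate 1 (0.0211). Of the poly(A) signal reader formed by CPSF1, CPSF4, WDR33 and FIP1L1, the first 2 fell and FIP1L1 rose. WDR33 did not pass with group as the sole term and was called higher with the block.

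Factors of histone pre-mRNA 3′ ends, which are cut by CPSF3 but not polyadenylated, gave 1 higher and 3 lower genes of 6, with a median log2 fold change of -0.33, beside 25.4% higher and 26.9% lower among all genes tested. LSM11 fell by 0.65 and CASP8AP2 by 0.63 on the log2 scale, and ZNF473 rose by 0.46. Of 7 termination and anti-termination factors 3 were higher and none lower by edgeR, with 4 not called and a median of 0.27, beside the same shares over all genes. PPP1R10, a phosphatase targeting subunit also called PNUTS, rose by 0.80 and SCAF8, an anti-terminator, by 0.78. With the replicate block, where 35.5% of all genes were higher and 34.4% lower, these counts were 2 higher and 4 lower for the histone list, and 5 higher for termination. LSM10, XRN2 and WDR82 joined the higher genes with the block, and ERI1 the lower ones.

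**Figure D4:**
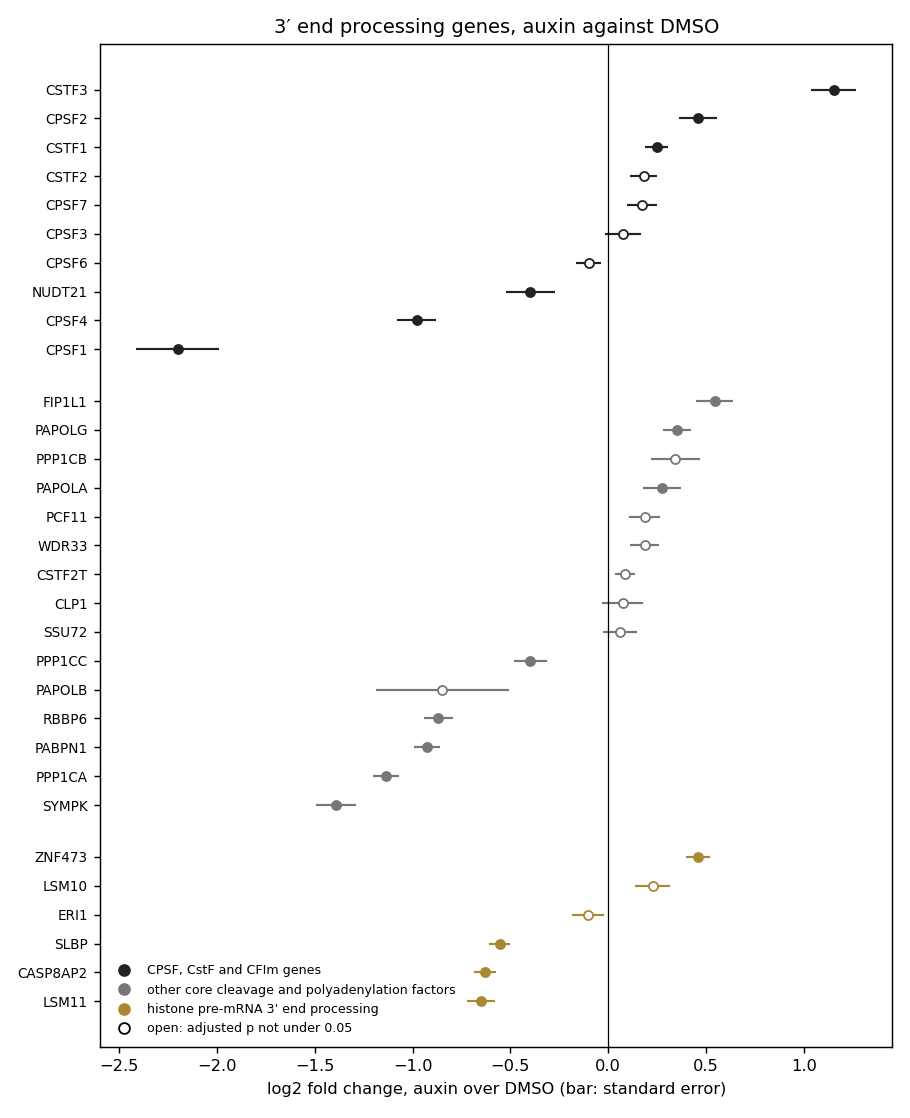
Log2 fold change, auxin over DMSO, with its standard error for each tested gene of the CPSF, CstF and CFIm genes, the other core factors and the histone list, filled where the adjusted p is under 0.05 and open where it is not. CPSF1 (-2.20) is lowest and CSTF3 (1.15) highest, and called genes of both directions occur in each of the 3 sets.

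Fold changes in these data went with GC content. Over 19708 genes with a GC value, the Spearman correlation of log2 fold change with GC content was -0.30, and over the 10 genes it was -0.66 (given as a description, since genes of the same 6 libraries are not independent). CPSF1 (62.8%) and CPSF4 (57.3%), which fell, had the highest GC content of the 10, and CSTF3 (41.9%) and CPSF2 (42.8%), which rose, the lowest. NUDT21 (43.6%), which also fell, had a GC content close to that of CPSF2, and its fold change was larger with the GC correction. The GC correction removes the GC trend of each library, and with it any difference between treatments that follows GC content. After it the correlation was -0.01 over all genes, which the correction itself brings about, and -0.61 over the 10 genes. The part of GC content in these changes was not tested.

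**Figure D5:**
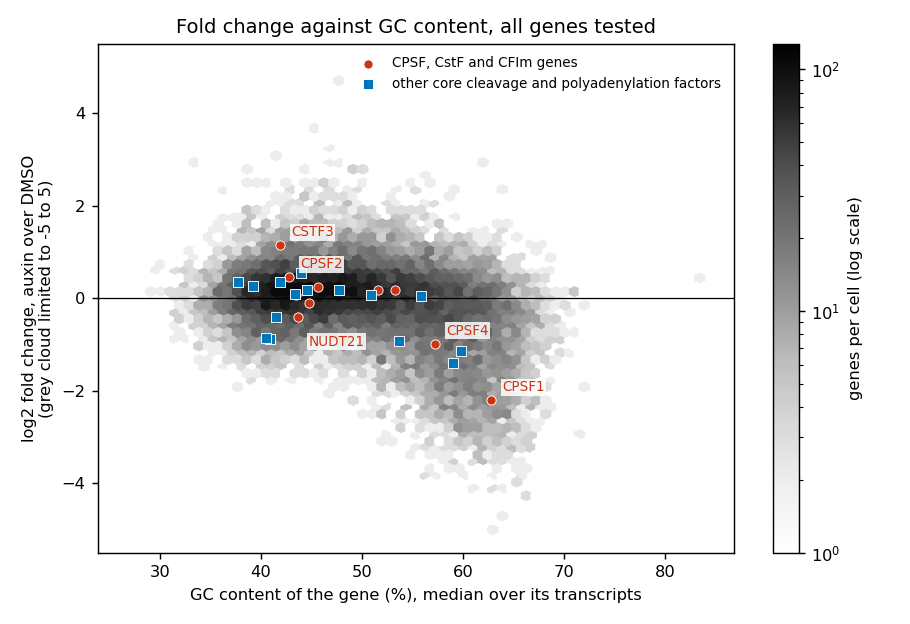
Log2 fold change, auxin over DMSO, against GC content (%, median over a gene's transcripts), with all tested genes as a grey density, the CPSF, CstF and CFIm genes as circles and the other core factors as squares. CPSF1 and CPSF4 lie at high GC content among genes with lower levels after auxin, and CSTF3 and CPSF2 at low GC content.

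By the Pearson correlation of log2 CPM over the 6 libraries, the genes most like CPSF1 were HELZ2, TINAGL1 and CDC42BPG, each with r above 0.99 and log2 fold changes of -2.91, -2.52 and -2.52. The 6 libraries include the difference between treatments that these genes share, and 1177 genes had r of at least 0.99.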

How the data were processed

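For each of 6 libraries the authors deposited gene-level and transcript-level tables. Per the file headers these hold expected counts (estimated reads, not normalized), TPM, the posterior standard deviation of each count (a non-negative signal on the count scale) and, per transcript, the percent of the gene's abundance; these deposited values were not pooled over replicates. The submitters' processing notes name bcl2fastq 2.20, STAR, DESeq2 and GRCh38 without roles; the counting program and its use of strand are not given in the sources used here. Per the labels' protocols, RNA was depleted of ribosomal RNA, made into stranded libraries and sequenced paired-end. All 58780 human gene and 206761 transcript IDs were in GENCODE release 29, from which coordinates, transcript types and sequences were taken. The 96 spike-in entries were at 0 and were left out, as were 649 entries with numeric IDs that name no gene (at most 0.0012% of counts).

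Expected counts were rounded and tested with edgeR 4.0.16 (quasi-likelihood test, TMM factors, filterByExpr, group as the sole term, Benjamini-Hochberg over all features, threshold 0.05), per gene and per transcript. Transcript shares were tested with limma 3.58.1 (trend, robust) on log2((transcript count + 0.5)/(other counts of the gene + 0.5)). TPM-based fits used log2(TPM + 1) or log2(TPM + 0.1), which understates changes of low genes. Shares in the text are of TPM unless said otherwise. Each statistic was tested on simulated data with changes of 2 sizes. The gene test recovered 77% of 2-fold changes and 28% of the smaller ones, and 7.08% of its calls were unchanged genes. The transcript test recovered 80.2% of the smaller and 97.1% of the larger changes, and the share test 51.9% and 93.9%. A gene or transcript that did not pass may therefore still have changed. Named items are the 10 genes, all other core factors, the largest changes of 2 further lists, and transcripts with at least 5% of a gene's TPM or the largest share changes. The genes and lists were chosen with earlier results of these data known.

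Same-numbered libraries deviated together: the correlations of their deviations from group means over genes were 0.62, 0.24 and 0.25, so the numbers were taken to pair the libraries, and results of a fit with the replicate number as a block are given where they change a call of the 10 genes, their transcripts or a listed gene, apart from 1 listed gene that is not reported here. DMSO replicate 3 correlated slightly more with auxin replicate 2 (0.29) than with its own number, and DMSO replicate 2 gave 0.16 with auxin replicate 3. The pairing thus rested mainly on replicate 1, the deepest of each group. Alternatives were other normalizations (RLE, upper-quartile, library size only), other filters, DESeq2 1.42.0, limma on TPM, thinning to the smallest library, GC-corrected offsets, the replicate block, replicates 2 and 3 only, and leaving out each library. Replicates were not duplicates of each other: counts within a group differed far beyond sampling noise.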

Additional observations from a re-analysis of the deposited data

How the results depend on the processing

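CPSF1, CSTF3, SYMPK and RBBP6 kept direction and call in all 19 alternatives of the gene test, with log2 fold changes of -2.45 to -1.48 for CPSF1 and 0.90 to 1.27 for CSTF3. Among the 10 genes, the number called higher (3) was 5 with the replicate block, 5 with replicates 2 and 3 only, 5 with upper-quartile factors and 1 with limma on log2(TPM + 1) or log2(TPM + 0.1), and the number called lower (3) was 1 with limma on log2(TPM + 1). Among the other core factors, the number higher (3) was 7 with the replicate block, 5 with the GC correction and the block together, 6 with replicates 2 and 3 only, 7 with upper-quartile factors, 0 with either TPM fit and 2 to 6 with single libraries left out. Transcripts of the 10 genes called higher in level (5) numbered 11 with the replicate block, 10 with upper-quartile factors, 3 with no filter and 3 to 4 with single libraries left out. Those called lower (10) numbered 6 with no filter and 3 to 11 with single libraries left out. Share calls higher (5) numbered 3 with a mean share of at least 5% required, 8 with an offset of 5 counts, 3 with replicates 2 and 3 only and 1 to 4 with single libraries left out, and share calls lower (5) numbered 2, 5, 2 and 2 to 5 under the same settings. Among named genes and transcripts called without it, the replicate block ended the share call of CPSF1-201 and the level call of CPSF7-217 and no other. Where fewer samples or fewer features were tested, the setting itself is the difference, and otherwise the cause was not tested.

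Values of genes without a call changed sign. CPSF3 (0.076) was -0.069 with the GC correction, also with the replicate block, -0.014 with library size only, -0.075 with log2(TPM + 0.1) and -0.074 with log2(TPM + 1). CSTF2T was -0.057 with the GC correction, also with the block, -0.0040 with library size only, -0.068 with log2(TPM + 0.1) and -0.063 with log2(TPM + 1). CLP1 was -0.024 with the GC correction, -0.017 with the block added, -0.013 with library size only, -0.107 and -0.098 on TPM, and from -0.017 (without DMSO replicate 1) to 0.151 with single libraries left out. SSU72 was -0.029 with library size only, -0.125 and -0.124 on TPM, and from -0.013 (without auxin replicate 3) to 0.125 with single libraries left out. CPSF6 was 0.021 with upper-quartile factors. The log2 odds of CSTF3-201 (-0.32, not called) were 0.061 on the TPM share. The level of CPSF1-202 was -0.040 with replicates 2 and 3 only. Without auxin replicate 1 it was -0.13 and that of CPSF1-201 was -0.31, with leave-one-out maxima of 0.62 and 0.98. Relative to TMM, upper-quartile factors moved the median log2 fold change of all genes by 0.12 and the TPM fits by -0.14 and -0.15. The share of calls that were higher was 48.5% with TMM, 59.7% with upper-quartile factors and 24.6% and 24.0% with the TPM fits. Counts limit CPSF4-208 after DMSO and the minor CPSF7 transcripts, which are under 100 expected counts in most libraries.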
